A study of Mus musculus with 4 samples.

Results

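This account covers the genes of the Sm and LSm proteins and of the RNA exosome. They were taken by name: every gene whose symbol is Lsm or Exosc followed by a digit, or begins with Snrp, among probe sets that the platform annotation gives to a single gene. This named 31 of the 18193 genes measured, 9 Snrp, 12 Lsm and 10 Exosc genes, spread over 13 chromosomes of the mouse assembly GRCm38.p6. Where a gene had several probe sets, the one with the highest mean over the 4 arrays stood for it, so the probe sets were chosen by those mean levels, which are not a result. Lsm5, Snrpa, Snrpd1 and Snrpd2 are read by probe sets shared with other genes and are not members. RNA came from epithelial cells of mouse skin squamous cell carcinomas that had been induced with chemicals, malignant tumours per the labels, and was hybridised to Affymetrix whole-genome arrays. The 2 groups were Sox2-GFP-positive cells (n = 2 arrays) and Sox2-GFP-negative cells (n = 2 arrays). Cells of both groups had been gated for Epcam and against CD45, CD31 and CD140a, and the series text gives 2 carcinomas of 2 mice as their source. The labels used here give no strain, age, carcinogen or promoter of the reporter, and since each sample is a sorted population, fewer cells of a type and less RNA per cell cannot be told apart.

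Sm and LSm proteins are small relatives that close into rings around RNA. The Sm ring sits on the U1, U2, U4 and U5 small nuclear RNAs, which together with U6 carry out splicing, while the LSm rings hold either U6 in the nucleus or the ends of decaying messenger RNA in the cytoplasm. The exosome is a barrel of RNase PH-like and RNA-binding subunits with attached nucleases. It degrades RNA from its downstream end and trims ribosomal and small nuclear RNA precursors. Dividing keratinocytes, like other dividing cells, need these machines to make and clear RNA, and most of their genes are active in every tissue.

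Most members read higher in the Sox2-GFP-positive arrays, by moderate amounts. In 26 of the 31 genes (83.9%) both positive arrays lay above both negative arrays, where 35.5% of all genes did so. None of the 31 lay wholly below, where 14.0% of all genes did, and 5 overlapped (Snrpb, Snrpn, Lsm4, Lsm11 and Exosc7). The median log2 difference of the members, positive minus negative, was 0.54, a ratio of 1.45, against 0.14 for all genes. The excess of 0.40 over all genes was 0.26 without positive replicate 1. The differences ran from -0.0028 in Lsm11 to 0.99 in Exosc4, and in 21 of the 31 the difference exceeded the larger of the gaps between replicates, which was the case for an increase in 25.1% of all genes. These genes are bright, with 29 of the 31 at or above the median level of all genes. Among the brightest 25% of genes 41.4% were separated upward and 17.5% downward, and the median difference was 0.16. No member passed the test across all genes (limma, adjusted p = 0.210 to 0.998), and no gene of the 18193 did. At an unadjusted p under 0.05 stood 11 of the 31, all higher, beside 9.75% of all genes that were higher at that level and 5.22% that were lower. With the replicate number as a block 0 of the 31 passed (limma, lowest adjusted p = 0.151), beside 0.0715% of all genes called higher and 0.868% called lower. When arrays were scaled to their poly-A control transcripts, 0.79 was added to the log2 difference of every gene, and 30 of the 31 then passed, all higher, beside 69.0% of all genes called higher and 0.868% lower; directions here are therefore relative to the other genes of the array.

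**Figure D1:**
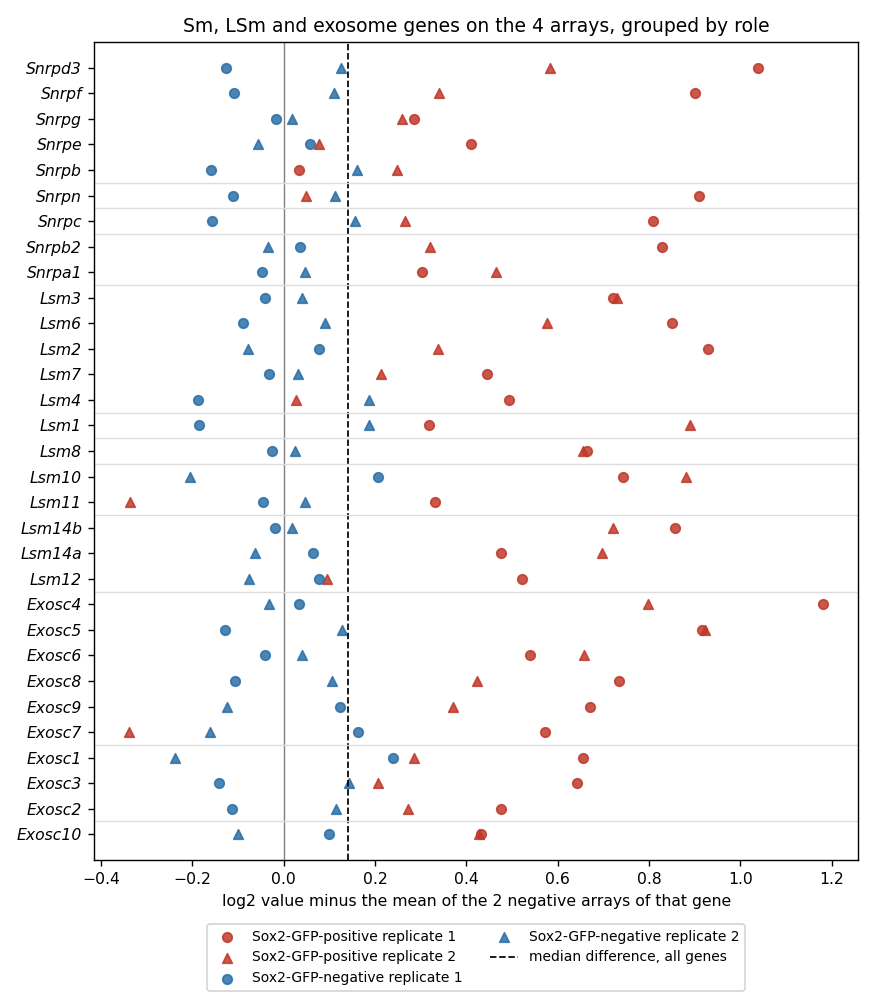
Log2 value of each member on each array, minus the mean of the negative arrays of the same gene; rows are genes ordered by role, red is Sox2-GFP-positive, blue is Sox2-GFP-negative, circles are replicate 1 and triangles replicate 2. Red symbols lie to the right of both blue symbols in 26 of the 31 genes, and the dashed line marks the median difference of all genes, 0.14.

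The sequences before the start sites of 3 members are shown because so many members read higher together. Each gene has the widest gap between groups in its family among those that met the following conditions. The start used is the outermost RefSeq start of the gene, and the upstream bases overlap no other gene in the RefSeq table. Each run holds the 250 bases before the RefSeq start of GRCm38.p6, on the plus strand and in reading direction, and capitals mark matches to the motifs named next. Snrpb2 encodes a U2 protein, Lsm8 the nuclear LSm subunit and Exosc5 an exosome ring subunit.
Snrpb2, chr2:143062819-143063068: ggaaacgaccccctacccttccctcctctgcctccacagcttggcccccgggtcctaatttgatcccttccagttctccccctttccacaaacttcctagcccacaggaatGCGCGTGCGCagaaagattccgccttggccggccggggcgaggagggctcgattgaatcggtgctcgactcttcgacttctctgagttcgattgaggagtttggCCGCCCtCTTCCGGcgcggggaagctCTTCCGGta
Lsm8, chr6:18848385-18848634: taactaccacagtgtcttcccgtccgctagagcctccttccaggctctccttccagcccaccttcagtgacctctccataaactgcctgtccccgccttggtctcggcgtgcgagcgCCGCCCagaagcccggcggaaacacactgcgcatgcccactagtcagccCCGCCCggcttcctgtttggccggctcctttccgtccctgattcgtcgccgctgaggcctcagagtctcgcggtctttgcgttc
Exosc5, chr7:25658903-25659152: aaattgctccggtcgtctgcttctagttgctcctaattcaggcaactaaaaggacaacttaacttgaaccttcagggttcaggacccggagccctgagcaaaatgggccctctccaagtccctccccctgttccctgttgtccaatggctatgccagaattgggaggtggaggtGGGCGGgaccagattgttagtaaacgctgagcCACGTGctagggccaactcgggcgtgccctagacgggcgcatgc
In the Snrpb2 run the capitals are a match to the NRF1 motif beginning 139 bases before the start, a GC box at 35, and ETS motifs at 28 and 9. The Lsm8 run has GC boxes at 133 and 84, and the Exosc5 run a GC box at 76 and an E-box at 44. A further NRF1 match in Exosc5 begins 8 bases before the start and runs past it.

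Of the 31 members 25 had a RefSeq window, 31 windows in all, each of 300 bases with 50 of them after the start; Snrpb, Lsm1, Lsm4, Lsm12, Exosc4 and Exosc9 had none. Motifs were searched on both strands as exact letters and could overlap each other. The NRF1 motif (GCGCA, any base, then GCGC) was in 8 of the 31 windows, those of Snrpb2, Lsm7, Lsm14b, Exosc1, Exosc2, Exosc5 and Exosc7, against 4.60% of all 32851 windows and 7.43% of those of the genes tested. ETS motifs (CCGGAAG) were in 6 windows against 8.86% of all windows and 13.0% of those of the genes tested. The YY1 motif (AAGATGGCG) was in 3, against 1.40% and 2.09%. GC boxes (GGGCGG) were in 19 against 35.7% of all windows and 52.3% of those of the genes tested. E-boxes (CACGTG) were in 1 against 7.15% and 8.73%, and TATA boxes (TATAAA) in 1, that of Snrpn, against 13.6% and 9.77%. Of the genes with the NRF1 match, Exosc7 had overlapping groups and the others were separated upward, as were 26 of the 31 members. Whether any motif goes with the differences was not tested.

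Levels of some other gene groups differed along the same contrast, and their counts stand beside shares of 35.5% upward and 14.0% downward over all genes. Cell division genes (17 measured) had 16 with both positive arrays above both negative arrays and none below, and their mean log2 level was 9.21 and 9.09 in the positive against 8.37 and 8.54 in the negative arrays. Fibroblast genes (14) had 12 separated downward, with a mean level of 8.74 and 6.58 against 10.75 and 9.23; Col1a1, a main collagen of the dermis, read 12.57 and 9.60 against 13.68 and 12.76. Mean levels of endothelial genes (12, of which 4 were separated downward) were 5.89 and 5.13 against 7.27 and 5.79. Leukocyte genes (15, of which 3 were separated downward and 1 upward) stood at 5.72 and 5.23 against 6.34 and 5.59, with 11 genes overlapping and a median difference of -0.11. The suprabasal keratinocyte genes (14, of which 7 were separated downward and 2 upward) had mean levels of 8.90 and 8.17 against 9.80 and 9.85. Negative replicate 1 had the highest fibroblast, endothelial and leukocyte means. Without that array 26 of the 31 members were separated upward, as were 46.5% of all genes. The fibroblast mean of negative replicate 2, 9.23, still exceeded that of both positive arrays. The part of these gene groups in the members' differences was not tested. Most epithelial markers were bright in both groups, with Krt5, a basal keratin gene, at 13.24 to 13.32 on all 4 arrays and Epcam at 10.75 to 11.80. Krt8 lay below the median level of all genes, at 5.08 to 5.73, and Krt18 ranged from 5.48 to 8.01. Of the 12 keratinocyte genes 6 were separated upward and 4 downward, among them Itgb4 (difference 1.22) and the E-cadherin gene Cdh1 (-0.96), and collagen genes were bright as well. Sox2 itself lay between 3.14 and 3.50 on all 4 arrays with overlapping groups, near the lowest values of the arrays, so the transcript does not check the sort. Of the markers gated against, Ptprc (CD45) read 4.98 and 4.34 against 4.97 and 4.18. Pecam1 (CD31) read 5.57 and 6.41 against 8.44 and 6.27, with overlapping groups. Pdgfra (CD140a) read 5.93 and 4.85 against 7.83 and 5.96 and was separated downward.

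The Sm ring holds the spliceosomal small nuclear RNAs other than U6 and its minor counterpart. Of its genes 4 of the 5 measured were separated upward (35.5% of all genes were), and the differences were uneven. Snrpd3, which encodes SmD3, read 10.27 and 9.82 in positive cells against 9.11 and 9.36 in negative cells, a log2 difference of 0.81 ± 0.25 (SE, n = 2 per group; limma adjusted p = 0.262). Both positive arrays lay above both negative arrays, and positive replicate 1 stood highest. Snrpf, for SmF, read 11.03 and 10.47 against 10.02 and 10.24, a difference of 0.62 ± 0.26 (SE). Here replicate 1 made up most of the difference, at 1.01 against 0.23 in replicate 2.
Snrpg, for SmG, read 13.26 and 13.23 against 12.96 and 12.99, a small difference of 0.27 ± 0.18 (SE) with close replicates. Snrpe, for SmE, read 11.72 and 11.38 against 11.36 and 11.25, and positive replicate 2 exceeded negative replicate 1 by only 0.02. Snrpb, for SmB, read 10.58 and 10.80 against 10.39 and 10.71. Its groups overlapped, negative replicate 2 standing above positive replicate 1, and the difference of 0.14 ± 0.22 (SE) lay at the median of all genes.

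Snrpn encodes SmN, a relative of SmB made mainly in the nervous system from an imprinted locus. It read 5.60 and 4.74 against 4.58 and 4.80, below the median level of all genes. Positive replicate 1 alone stood apart from the other 3 arrays. The 3 Snrp genes of proteins bound to U1 or U2 alone were separated upward. Other genes of these particles went both ways. Snrnp70, for a U1 protein, and Sf3b1, of U2, were separated downward with differences of -0.22 each. The U2 genes Sf3a1, Sf3a3, Sf3b2, Sf3b4, Sf3b5, Sf3b6 and Phf5a were separated upward, with differences of 0.20 to 0.72. Sf3a2 and Sf3b3 overlapped. These values were looked up after the result. Snrpc, for the U1 protein that helps recognise the start of an intron, had a difference of 0.54 ± 0.27 (SE). Snrpa1, for the U2 protein A′, had 0.38 ± 0.19 (SE). Snrpb2, for its partner B′′, read 10.09 and 9.58 against 9.29 and 9.22, a difference of 0.57 ± 0.24 (SE); it is given by array because its upstream sequence is shown, a choice made after its values were seen.

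In the LSm family 10 of 12 genes were separated upward (35.5% of all genes were), with a median difference of 0.62. Lsm3, a subunit of both LSm rings, read 9.96 and 9.97 against 9.20 and 9.28, a difference of 0.73 ± 0.18 (SE, n = 2 per group; limma adjusted p = 0.236). Lsm8, which directs the ring to U6 in the nucleus, read 11.30 and 11.29 against 10.61 and 10.66, a difference of 0.66 ± 0.18 (SE). In both genes the gap between groups, 0.68 and 0.63, was several times the gap between replicates. Lsm1 takes the place of Lsm8 in the cytoplasmic ring that promotes decapping; its difference was 0.60 ± 0.28 (SE), with a narrower gap of 0.13. Lsm8 and Lsm1 were not tested against each other. Of the other shared ring genes, Lsm2, Lsm6 and Lsm7 were separated upward with differences of 0.63, 0.71 and 0.33. Lsm4 overlapped, at 0.26 ± 0.26 (SE).

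Lsm10 and Lsm11 replace Sm proteins in the U7 particle, which cuts the ends of replication-dependent histone messages. Lsm10 read 7.26 and 7.40 against 6.72 and 6.31, a difference of 0.81 ± 0.23 (SE, n = 2 per group; limma adjusted p = 0.248). Lsm11 read 6.26 and 5.60 against 5.89 and 5.98, and its positive arrays enclosed both negative arrays. The U7 genes therefore parted: Lsm10 had the largest difference of the LSm family and Lsm11 the smallest. Lsm11 is dim, with a mean below the median of all genes.
Lsm14b, for a protein of cytoplasmic messenger RNA granules, read 8.80 and 8.67 against 7.93 and 7.97, a difference of 0.79 ± 0.19 (SE; limma adjusted p = 0.218). Its gap of 0.70 was the widest among LSm genes. The related Lsm14a had a difference of 0.59 ± 0.20 (SE). In Lsm12, whose protein has an LSm domain but belongs to no ring, the difference was 0.31 ± 0.23 (SE) and the gap 0.02.

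In the exosome 9 of 10 genes were separated upward (35.5% of all genes were), with a median difference of 0.50. Exosc4 and Exosc5, for RNase PH-like subunits of the ring (the proteins Rrp41 and Rrp46), showed the largest differences of all members by the brightest probe set. With the mean of all probe sets Exosc4 stood at 0.77, below Lsm10 (0.81) and Lsm14b (0.79). Exosc4 read 8.57 and 8.18 in positive cells against 7.42 and 7.35 in negative cells, a ratio of 1.99 (log2 difference 0.99 ± 0.22 SE, n = 2 per group; limma adjusted p = 0.210). Exosc5 read 8.31 and 8.32 against 7.27 and 7.53, a ratio of 1.89 (0.92 ± 0.20 SE; limma adjusted p = 0.210). Its gap of 0.79 was the widest among the members. Exosc6, another ring gene, read 8.95 and 9.07 against 8.37 and 8.45, a difference of 0.60 ± 0.19 (SE). Exosc8 and Exosc9 followed with 0.58 and 0.52.
Exosc7, given by array after its values were seen, was the exception in the ring: it read 9.11 and 8.20 against 8.70 and 8.38, with the highest and the lowest value both in positive arrays. Differences of the cap genes, whose products cover the entrance of the barrel and bind RNA, lay close together at 0.47 for Exosc1, 0.42 for Exosc3 and 0.37 for Exosc2. All 3 were separated upward, with gaps of 0.05 to 0.16 between the nearest arrays. Exosc10, the nuclear exonuclease attached to the barrel, read 9.96 and 9.96 against 9.63 and 9.43, a difference of 0.43 ± 0.19 (SE).

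The replicate numbers, which the series text lets one read as tumours without saying so, gave different sizes. Between the replicate 1 arrays all 31 members were higher in positive cells (65.5% of all genes were), with a median difference of 0.59 against 0.19 for all genes. Between the replicate 2 arrays 27 of 31 were higher (56.8% of all genes), with a median of 0.42 against 0.06; Snrpn, Lsm4, Lsm11 and Exosc7 read lower there. Positive replicate 1 read above positive replicate 2 in 23 of 31 members (58.7% of all genes), while negative replicate 1 read above negative replicate 2 in 11 (45.8%). Snrp genes showed the unevenness most, with medians of 0.79 and 0.23 for replicates 1 and 2, against 0.61 and 0.56 for Lsm genes and 0.59 and 0.51 for Exosc genes. Whether the families differ was not tested. Lsm10 ran the other way, with 0.54 in replicate 1 and 1.09 in replicate 2.

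**Figure D2:**
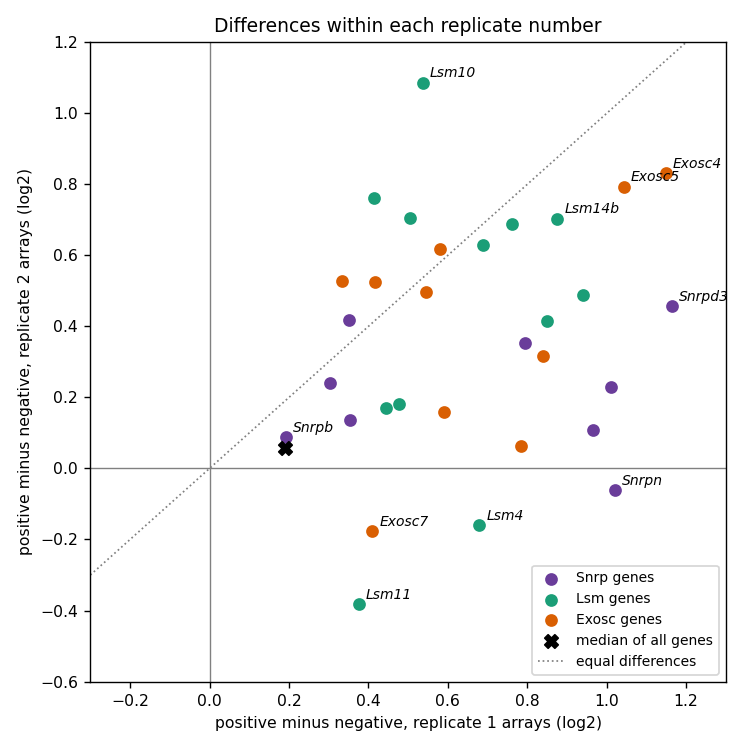
Log2 difference, positive minus negative, between the replicate 1 arrays (horizontal) and the replicate 2 arrays (vertical), 1 point per member coloured by family; the cross is the median of all genes and the dotted line marks equal differences. All 31 points lie right of 0, 27 lie above 0, and Snrpd3 lies far below the dotted line.

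A second reading came from the members' other probe sets on the same arrays; whether they share single probes was not checked. The 31 genes had 60 probe sets, and 17 genes had more than 1. Of the 29 not used above, 20 were separated upward and none downward, beside 28.9% and 19.2% of the other probe sets of all genes. Of the 17 as bright as the median gene 14 were separated upward (36.1% over all genes), and of the 12 dimmer ones 6 were (23.9%). Exosc10, Lsm6 and Snrpg had a further bright probe set with a similar or larger difference, at 0.73, 0.66 and 0.60. Snrpd3 did not: its second probe set read 8.10 and 7.05 against 7.82 and 7.44, a difference of -0.06, so the value of 0.81 rests on its brightest probe set. For Exosc8 the second probe set gave 0.03 against 0.58. Further bright probe sets stood at 0.62 and 0.22 for Exosc10, the latter with overlapping groups, and at 0.42 for Lsm6. For Snrpb the second probe set read 10.42 and 10.36 against 9.86 and 10.13, and its groups did not overlap.

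**Figure D3:**
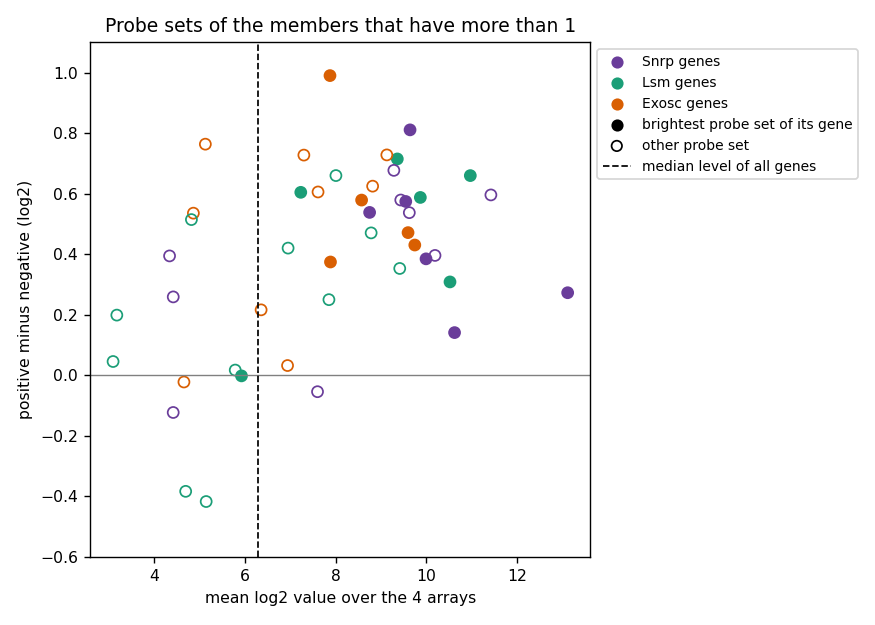
Log2 difference, positive minus negative, against the mean log2 value over the 4 arrays for every probe set of the 17 members that have more than 1; filled points are the brightest probe set of each gene, open points the others, and the dashed line is the median level of all genes, 6.29. Most bright probe sets lie above 0, and the 3 points below -0.1 are dimmer than that line.

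Partners of these proteins did not all share the pattern. Genes of small nuclear RNP assembly, such as the SMN complex that loads Sm rings and the Prmt5 complex that methylates Sm proteins, had 16 of 19 separated upward and none downward (35.5% and 14.0% of all genes), with a median difference of 0.53. Gemin8, an SMN complex subunit, read 6.67 and 6.98 against 5.69 and 4.65, a difference of 1.65 ± 0.39 (SE). Its mean lay below the median level of all genes. Snupn, the import adaptor of finished particles, read 7.21 and 7.13 against 6.49 and 6.41. Of the other snRNP proteins 21 of 34 were separated upward and 4 downward, with a median of 0.32. Prpf31, which holds the U4/U6 and U5 particles together, read 8.78 and 8.78 against 7.55 and 7.55, a ratio of 2.35, and Snrnp27 read 8.67 and 8.47 against 7.50 and 7.84. The helicase gene Ddx23, dim and below the median level of all genes, was lower at 4.81 and 5.02 against 5.64 and 5.59. Snrnp48 of the minor spliceosome read 9.87 and 9.84 against 10.10 and 10.05. No gene of these lists passed the test (limma, lowest adjusted p = 0.180).

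For cofactors of the exosome and for decapping genes the shares upward were nearer that of all genes. Over all genes 35.5% were separated upward and 14.0% downward. Of the exosome nucleases and cofactors 6 of 17 were separated upward and 4 downward, with a median of 0.07. Mphosph6, an RNA-binding exosome cofactor, read 8.40 and 8.28 against 7.74 and 7.28, and Mtrex, the nuclear helicase that feeds RNA to the barrel, 8.82 and 8.82 against 7.97 and 8.29. Zfc3h1, part of a nuclear complex that targets polyadenylated RNA to the exosome, read 8.36 and 9.19 against 9.60 and 9.72. Tent4b, a poly(A) polymerase that tags RNA for the exosome, read 9.46 and 9.42 against 9.78 and 9.67. Of the genes listed for decapping, not all of them partners of the cytoplasmic LSm ring, 2 of 10 were separated upward and 1 downward. Their median was -0.01. Dcps, the scavenger decapping enzyme, read 8.95 and 8.58 against 8.23 and 8.25, Dcp1a 7.73 and 7.73 against 7.37 and 7.57, and Patl1, which binds that ring, 8.47 and 8.72 against 8.82 and 8.93. Histone message processing, the task of the U7 particle, had 5 of 8 separated upward and none downward, with a median of 0.30; Cpsf2 read 8.78 and 8.67 against 8.03 and 7.58, and Cstf2 9.44 and 9.32 against 8.67 and 8.81. The lists were not tested against each other or against the members, and no gene of the 3 passed the test (limma, lowest adjusted p = 0.236).

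**Figure D4:**
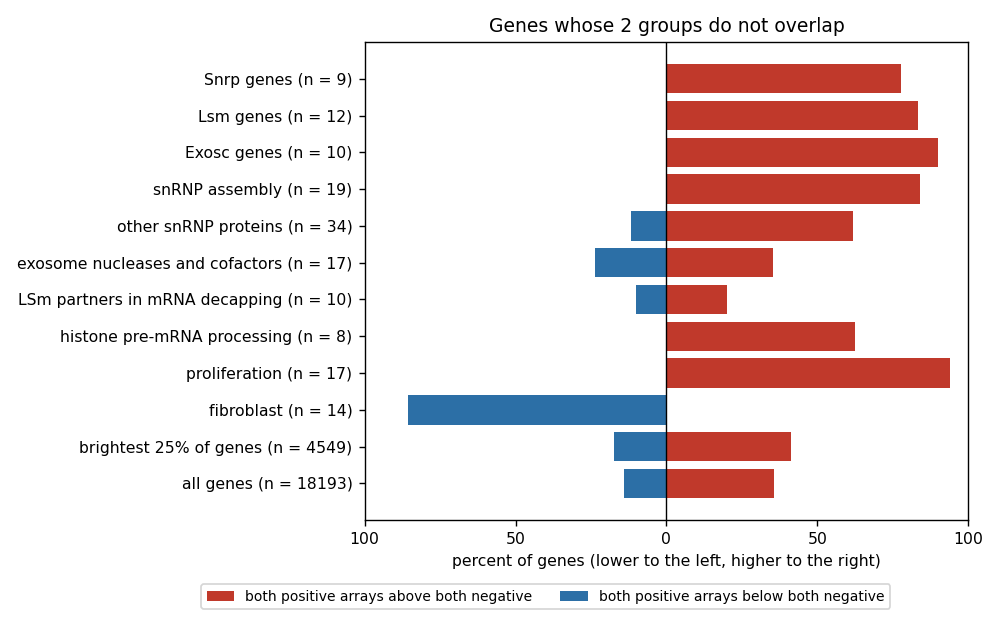
Percent of genes in each list whose groups do not overlap, higher in positive cells to the right and lower to the left; n is the number of genes measured. The Snrp, Lsm and Exosc genes, with 7 of 9, 10 of 12 and 9 of 10, stand beside snRNP assembly with 16 of 19 and cell division with 16 of 17, and all genes stand at 35.5% and 14.0%.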

How the data were processed

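The authors deposited 1 table of log2 values, 45101 probe sets by 4 arrays; the log2 scale was read from the values, 2.73 to 14.36. The submitters' processing notes name R 2.14.0, while the normalization, background step and summary method were not given in the sources used here. Per the labels' protocols, RNA of sorted cells was amplified and biotin-labelled before hybridisation. Groups and replicate numbers came from the sample titles. Nothing says that arrays of a group are more than sorted samples of 2 tumours, so p-values measure the spread between these samples, and the number of arrays limits precision. The 64 control probe sets were left out; 34945 probe sets have 1 gene symbol, 932 several and 9160 none. All 31 members matched RefSeq (GRCm38.p6) by gene number with the same symbol.

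Each gene was represented by its brightest probe set. Differences are positive minus negative. Limma 3.58.1 (R 4.3.3; lmFit and eBayes, group as the only term) was fitted over all 18193 genes, with Benjamini-Hochberg adjustment and a threshold of 0.05, after it was tested on simulated data. It leaves 2 residual degrees of freedom. Groups are called separated where they do not overlap, which is a count with no test. The members and gene lists were chosen with earlier results of these data known. Members of the Sm ring are given by array, as are the 4 with the widest gaps in each of the Lsm and Exosc families. Members with a difference below 0 are given too. Snrpn is added, with Exosc7 and Snrpb2 chosen after their values were seen. Of each pathway list the 2 genes with the widest gap each way are given. Col1a1, Krt5 and Krt8 do not follow that rule, and the genes of the sort markers are given as well.

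Replicate 1 minus replicate 2 correlated between groups with r = 0.16 over all genes and 0.24 over the brightest 25%. Genes are not independent, so the pairing stays a reading of the series text. Alternatives were a replicate block, equal medians, quantile normalization, poly-A spike-in scaling (24 probe sets), no dim genes, the mean of probe sets, other priors, another threshold and leaving out each array. Chosen after seeing the data were probe sets without shared endings and the brightest 25% of genes as comparison.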

Additional observations from a re-analysis of the deposited data

How the results depend on the processing

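No member passed at an adjusted p of 0.05 in limma under any alternative except poly-A spike-in scaling; with the replicate number as a block, the count was 0 too, also without dim genes or after quantile normalization. That scaling moves the median difference of all genes from 0.14 to 0.93, and 30 of the 31 members passed, all but Exosc7 (limma adjusted p = 0.0657), beside 69.0% of all genes called higher. The count of members separated upward, 26, was 22 after quantile normalization (35.1% of all genes), 25 with the mean of all probe sets (35.2%) and 27 with probe sets that lack shared endings (36.0%). The count separated downward, 0, was 4 within replicate 2, where single arrays are compared and 56.8% of all genes were higher. Leaving out 1 array gave 0 to 2 members, beside 23.4% to 28.0% of all genes. The higher count came without positive replicate 1 (28.0%). The median member difference relative to all genes was 0.40. Leaving out 1 array gave 0.26 to 0.48, the lowest without positive replicate 1 and the highest without positive replicate 2. The spread between replicates (SD 0.08) comes from these same arrays, so it cannot show that 1 of them is unusual. The median difference changed in size with the positive array kept, though not in direction. Under the other alternatives it was 0.33 to 0.40. The Lsm11 difference of -0.0028 became 0.10 after quantile normalization and 0.0068 with the mean of probe sets, so its sign carries no information. That of Snrpb was 0.02 after quantile normalization and 0.40 with its second probe set. The array has no detection calls here, so values of dim genes such as Snrpn and Lsm11 only bound a level.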

Other observations

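The probe sets that stand for Snrpb, Snrpe, Snrpg, Lsm6 and Lsm14a end in _s_at. The array maker gives that ending to probes shared by transcripts that can come from different genes. Several Sm genes have processed copies elsewhere in the genome. The 5 members with that ending had a median log2 difference of 0.27 (0.14 to 0.71). The other 26 members, those with probe sets ending in _a_at included, had 0.56 (-0.0028 to 0.99). For Snrpb and Snrpg, moving to a probe set without that ending raised the difference from 0.14 to 0.40 and from 0.27 to 0.60. For Lsm6 and Lsm14a the same move lowered it, from 0.71 to 0.66 and from 0.59 to 0.35, and Snrpe has no such probe set. This pattern was noticed after the values were seen and was not tested.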
